A study of Mus musculus with 39 samples.

Results

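The comparison described here is that of an anti-PD-1 antibody with an isotype control antibody in tumours of mice colonised with CZA+DAV132 stool. It rests on 9 of the 39 libraries of the study, 5 given anti-PD-1 (named T021, T023, T026, T029 and T030 in the labels) and 4 given isotype (T022, T024, T027 and T028), chosen by the treatment in their titles. All 9 came from wild-type C57BL/6 mice, an inbred laboratory strain, that had received a faecal microbiota transplant (FMT) of human volunteer stool. That stool had been exposed for 6 days to CZA, which the labels name only by this abbreviation, together with the colonic adsorbent DAV132. The fibrosarcoma line MCA-205, which comes from the same strain, was implanted under the skin 2 weeks after the transplant. Tumours of 25 to 35 mm2 were then treated by 4 injections, 3 days apart, of 250 µg of the anti-PD-1 clone RMP1-14 or of the isotype clone 2A3, and collected 2 days after the final injection. Libraries are not tied to mice in the labels, and p-values then cover only the variation among the libraries, which may be technical in part. The other arm of the same experiment, with stool exposed to CZA alone, gave 10 libraries, and a repeat with the same stool gave 10 libraries of sorted CD8 T cells in the CZA+DAV132 arm.

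PD-1 is an inhibitory receptor of activated T cells, and antibodies that block it release signalling through the T cell receptor and the costimulatory receptor CD28. Signalling through these receptors is known to induce early response genes, NF-kB targets and, as T cells grow, the ribosomal proteins and translation factors that make new protein. Messages for ribosomal proteins and elongation factors carry a run of pyrimidines at their start through which growth signals control their translation. Tnfaip3 and Nfkbia are NF-kB targets whose products shut NF-kB off again.

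In the libraries labelled bulk tumour, genes of T cells were abundant and those of fibrosarcoma cells were scarce. Cd8a, which encodes the alpha chain of CD8, had 285, 141, 181, 357 and 352 TPM under anti-PD-1 (libraries T021, T023, T026, T029 and T030), against 408, 311, 370 and 297 TPM under isotype (T022, T024, T027 and T028); values per library follow these orders throughout. TPM gives the abundance of a transcript per length as a share of its library and keeps no read count, which leaves the depth unknown. Cd4, the co-receptor of helper T cells, lay between 0.286 and 6.24 TPM in the 9 libraries, and the collagen Col1a1, an abundant product of fibroblasts, between 4.73 and 44.7 TPM. The T cell marker list, with all 14 members tested, summed to 4132 to 12658 TPM under anti-PD-1 and 7591 to 12047 TPM under isotype. The fibroblast and fibrosarcoma list, with 14 of 17 members tested, summed to 954 to 2389 TPM under anti-PD-1 and 1570 to 2892 TPM under isotype. Sorted CD8 T cells of the same arm gave this list 730 to 2850 TPM under anti-PD-1 and 1843 to 3867 TPM under isotype. The sum is therefore no measure of fibroblasts alone. The levels in the 9 libraries go against a label of whole tumour, so the samples are called the libraries labelled bulk tumour.

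Before any gene is compared, the libraries differ in how much of their TPM falls on entries of low-complexity sequence. T026 had 51.1% of its TPM on 17 entries made of satellite or simple repeats, whereas the other anti-PD-1 libraries had 0.289%, 0.562%, 0.426% and 0.398% (T021, T023, T029 and T030) and the isotype libraries had 0.389%, 0.469%, 0.356% and 0.415%. The groups averaged 10.6% ± 22.7 (SD, n = 5) under anti-PD-1 and 0.407% ± 0.0476 (n = 4) under isotype, a difference that did not pass a two-sided exact permutation test (p = 0.476, where the smallest possible is 0.0159). Without T026 the difference was 0.0112 percentage points (exact p = 0.857). Gm10800 (GRCm38 chromosome 2, 98666547 to 98667301) is among the satellite entries that take up T026, and the first 120 bases of its GENCODE M21 transcript are shown to make plain what such an entry holds, with runs of at least 4 A or T in capitals.

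Gm10800: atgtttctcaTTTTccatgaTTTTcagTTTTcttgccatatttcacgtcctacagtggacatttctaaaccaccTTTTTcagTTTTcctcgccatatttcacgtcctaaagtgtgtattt

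Entries of a second kind, transcripts that hold a stretch of 31 bases with at least 27 A or at least 27 T, took 26.5%, 33%, 10.8%, 18% and 19.7% of the TPM under anti-PD-1 and 14.1%, 16.6%, 17.3% and 16.9% under isotype, with the actin gene Actb left out. T021 and T023 stood highest and T026 lowest, and the groups overlapped. Entries with a like stretch of C or G took 6.08%, 10.5%, 2.37%, 2.07% and 5.2% under anti-PD-1, against 1.18%, 1.54%, 1.42% and 2.7% under isotype, so that T021, T023 and T030 lay above every isotype library. In the CZA arm the C/G share was 1.63% to 3.29% under anti-PD-1 and 1.93% to 2.88% under isotype. A further 1996 entries hold a dinucleotide repeat of at least 31 bases and are also counted as stretch entries. All these kinds were left out where values are rescaled without repeat and stretch entries. The stretches of 5 entries that return below are shown, each as 30 bases of a GENCODE M21 transcript, with the repeated base in capitals.

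Dusp23: AAAAAAAAAAAAAAcAAAAAAAAAAAAAAA
Zfp260: AAAAAAAAAAAcAAAAAAAAAAAAAAAAAA
Col4a3: gTTTTTTTTTTTTTTTTTTTTTTTTTTgTT
Pecam1: AAAAAAAAAAAAAAAAAAAAAAAAAAAAAA
Zrsr1: CCCCCCCCCCCCCCCCCCCCCCCCCCCCCC

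**Figure D1:**
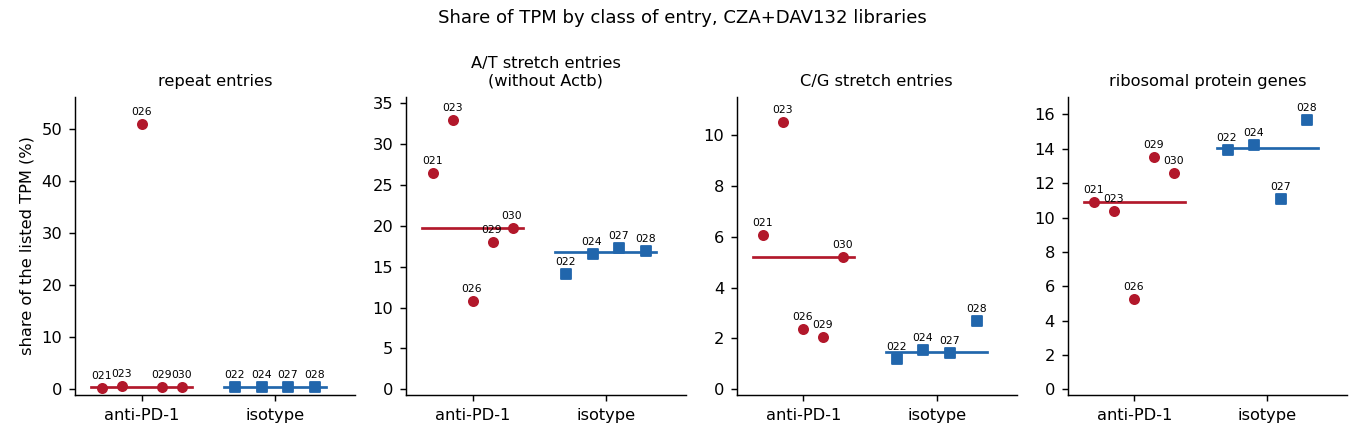
Share of the listed TPM (%) on repeat entries, A/T stretch entries without Actb, C/G stretch entries and ribosomal protein genes, 1 point per library with its number, anti-PD-1 as circles and isotype as squares, lines at group medians. T026 stands apart with 51.1% on repeat entries, and T021 and T023 lead the stretch entries.

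Under anti-PD-1, 28 genes fell and 4 rose relative to isotype among 13326 tested, and 9 of the falls were genes of protein synthesis. The shares called were 0.21% lower and 0.03% higher (limma on log2(TPM + 1), Benjamini-Hochberg adjusted p under 0.05). Of the 28 falls, 5 were ribosomal protein genes, 4 were translation factor genes, 7 were predicted, pseudogene or ribosomal protein-like entries, and 12 were other genes. The 4 rises were all pseudogene entries. In each of the 32 genes called, the 5 anti-PD-1 libraries lay all on one side of the 4 isotype libraries, which held for 4.43% (lower) and 2.06% (higher) of all tested genes. The median log2 change over all genes was -0.15 with the deposited values and -0.03 without T026. It was 0.03 after median-ratio scaling and 0.13 after the values were rescaled without repeat and stretch entries, and changes below are read against these medians. Genes with a mean of at least 100 TPM, 1047 in number, had a lower median of -0.44, or -0.10 rescaled, and held 22 of the 28 falls.

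The calls were few and depended on single libraries. Without T024 or without T027, both isotype, limma called no gene in either direction, with 752 and 792 genes lower and 490 and 348 higher at an unadjusted p under 0.05, and without T022 it called 1 fall. Without T021 there were 5 falls, without T023 10 falls and 2 rises, without T026 19 falls and 14 rises, without T028 3 falls and 2 rises, without T029 113 falls and 20 rises, and without T030 19 falls and 2 rises. Of the 32 genes, 22 kept their call without T026, where 0.143% of all genes were called lower and 0.105% higher. After rescaling without repeat and stretch entries, all 25 falls that could still be tested kept their sign and 11 kept their call, as did the 4 rises. On these values 0.0982% of 11198 genes were called lower and 0.0625% higher, and the groups did not overlap for 2.33% (lower) and 3.2% (higher).

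**Figure D2:**
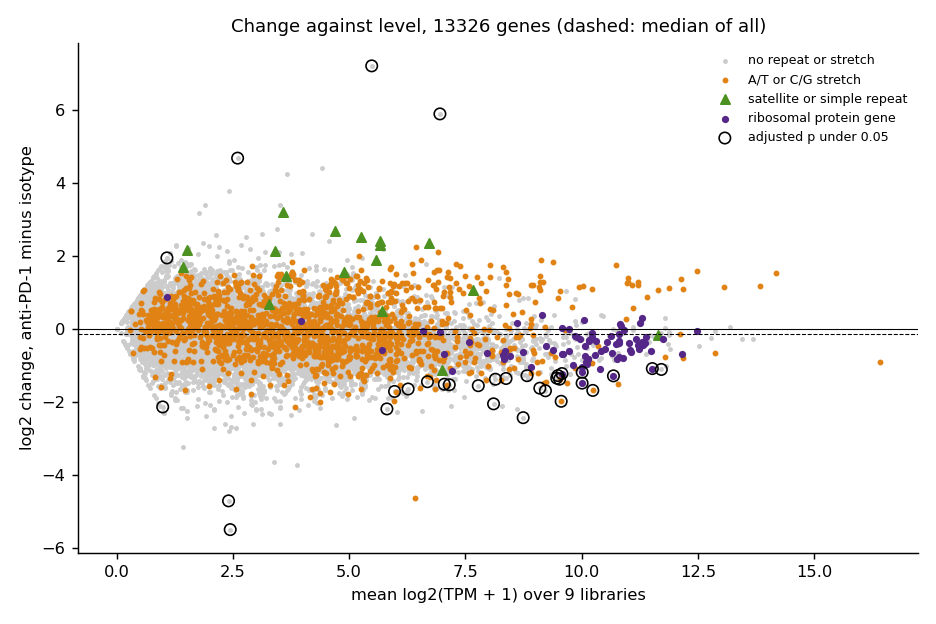
The log2 change (anti-PD-1 minus isotype, vertical) of 13326 genes against their mean log2(TPM + 1) over the 9 libraries (horizontal), coloured by class, with called genes ringed and the median of all genes, -0.15, dashed. Ringed falls gather among highly expressed genes, and the ringed rises are pseudogene entries.

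Ribosomal protein genes were 5 of the 28 falls. Rpl4, a protein of the large ribosomal subunit (chromosome 9, 64173375 to 64178666), had 660, 539, 473, 880 and 795 TPM under anti-PD-1, against 1866, 1735, 2047 and 1675 TPM under isotype. Its highest anti-PD-1 library, T029, stayed far below its lowest isotype library, and T026 was the lowest of all. The log2 change was -1.48 ± 0.24 (SE, adjusted p = 0.0179), and -1.10 (adjusted p = 0.0287) rescaled without repeat and stretch entries. Rpl6, also of the large subunit, averaged 748 ± 249 TPM under anti-PD-1 and 1632 ± 118 TPM under isotype (SD), a log2 change of -1.19 ± 0.21 (adjusted p = 0.0212). Rpl41, the smallest ribosomal protein, averaged 2193 ± 652 TPM under anti-PD-1 and 4471 ± 400 TPM under isotype, a log2 change of -1.08 ± 0.21 (adjusted p = 0.028). Both kept their call rescaled, at -0.80 and -0.70. Rps25, of the small subunit, had log2 changes of -1.29 (adjusted p = 0.0448) as deposited and -0.90 (adjusted p = 0.0593) rescaled. Rpl3, which lies close to the catalytic centre of the ribosome, had -1.22 (adjusted p = 0.0479) as deposited and -0.84 (adjusted p = 0.132) rescaled.

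The rest of the ribosome did not move as one. Of 84 cytosolic ribosomal protein genes, found by symbol after their values were seen, 80 were tested, 5 fell and none rose, and 35 were lower and 0 higher at an unadjusted p under 0.05, where 6.72% of all genes were lower and 3.56% higher. Of the genes with a mean of at least 100 TPM, 32.5% were lower at that threshold, against 43.8% of the ribosomal protein genes. The ribosomal protein genes had a median log2 change of -0.48 as deposited, -0.27 without T026 and -0.09 rescaled. Genes with a mean of at least 100 TPM had -0.44, -0.26 and -0.10, and their rescaled share at that threshold is not given. After rescaling, 20 of 77 ribosomal protein genes were lower and 9 of 77 higher at an unadjusted p under 0.05, where 2.69% and 5.03% of all genes were. Rpl13a, for example, averaged 5886 ± 1906 TPM under anti-PD-1 and 5998 ± 1634 TPM under isotype, a log2 change of -0.05 as deposited and 0.33 rescaled. All ribosomal protein genes together took 10.9%, 10.4%, 5.24%, 13.5% and 12.6% of the TPM under anti-PD-1, against 13.9%, 14.2%, 11.1% and 15.7% under isotype, with overlap between the groups.

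Eef1b2, an elongation factor subunit that reloads elongation factor 1A with GTP, had 447, 481, 314, 737 and 534 TPM under anti-PD-1, against 1116, 1155, 1258 and 1174 TPM under isotype. The isotype libraries lay close together and far above all 5 anti-PD-1 libraries, and the log2 change was -1.28 ± 0.22 (adjusted p = 0.0179), or -0.89 (adjusted p = 0.0268) rescaled. Eef1a1, the factor that brings aminoacyl-tRNA to the ribosome, averaged 2557 ± 1021 TPM under anti-PD-1 and 5155 ± 246 TPM under isotype (log2 change -1.11, adjusted p = 0.0489). Eif4a1, the RNA helicase of the cap-binding complex, averaged 232 ± 87.2 TPM under anti-PD-1 and 566 ± 109 TPM under isotype (-1.36, adjusted p = 0.0479). Eif5a, the factor modified with hypusine, averaged 138 ± 31 TPM under anti-PD-1 and 407 ± 101 TPM under isotype (-1.55, adjusted p = 0.0327). These 3 kept their sign and lost their call rescaled, at -0.72, -0.97 and -1.17. Genes were also found by the symbol pattern of initiation and elongation factors, again after their values were seen. The pattern also matches regulators named after these factors, such as kinases and binding proteins. Of the 63 genes so found, 62 were tested, 4 fell, none rose and 20 were lower at an unadjusted p under 0.05. That is 32.3%, beside 6.72% of all genes and 32.5% of genes with a mean of at least 100 TPM. Rescaled, 12 of 51 were lower and 2 higher, beside 2.69% and 5.03% of all genes, and 1 was called lower. The rescaled list median was -0.32, beside -0.10 for genes with a mean of at least 100 TPM, whose rescaled share is not given. The summed level of these factor genes was 5114 to 11247 TPM under anti-PD-1 and 14234 to 14797 TPM under isotype. That sum contains the 4 called genes, with Eef1a1 alone at means of 2557 and 5155 TPM, and is no separate support.

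**Figure D3:**
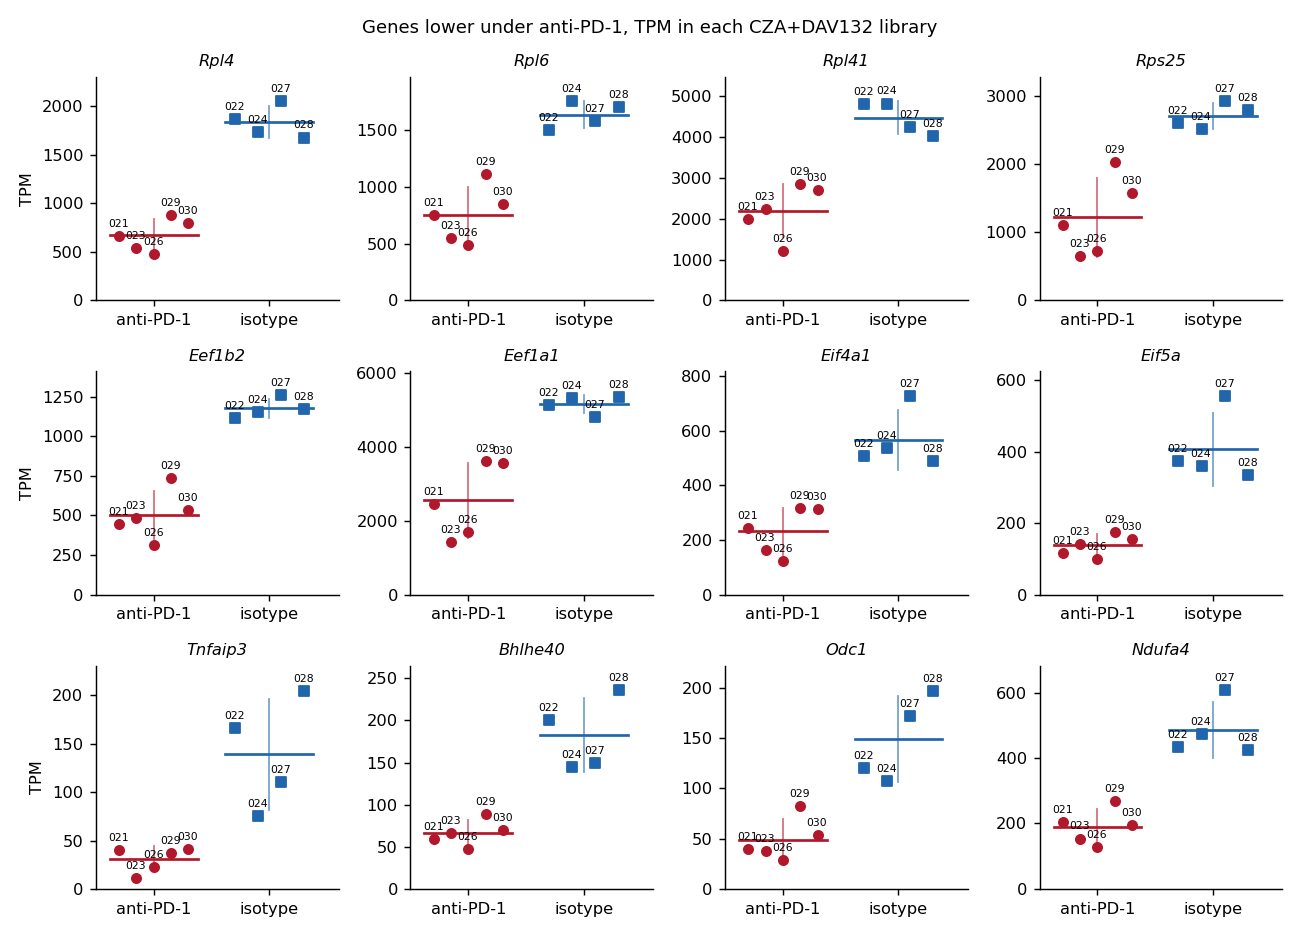
TPM of 12 genes called lower, 1 point per library with its number, anti-PD-1 as circles and isotype as squares, with group means (horizontal) and SD (vertical). In every panel all 5 anti-PD-1 libraries lie below all 4 isotype libraries, for Rpl4 at 473 to 880 TPM against 1675 to 2047 TPM.

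Start regions were examined because the fallen translation genes belong to a class known for a pyrimidine run at the start of the message. Of the 8 called ribosomal protein and translation factor genes with a RefSeq start region (GRCm38.p6, 250 bases before to 50 after the start), 3 held a run of at least 8 C or T within 10 bases of the annotated start on the coding strand, or 37.5%. The share over all 27025 genes with a start region was 15.8%. The runs begin 18 (Rpl4), 22 (Rps25) and 5 (Eef1a1) bases before the annotated start and are 14, 14 and 10 bases long. Those of Rpl4 and Rps25 end before that RefSeq start. The GENCODE start of Rpl4 given above lies within its run, so whether the run is in the message depends on the annotation. Whether any run opens the message in these cells was not tested. The 3 regions are shown from 30 bases before to 30 after the start, with the run in capitals, at chr9:64173357-64173416 (plus strand), chr9:44407684-44407743 (plus strand) and chr9:78481695-78481754 (minus strand).

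Rpl4: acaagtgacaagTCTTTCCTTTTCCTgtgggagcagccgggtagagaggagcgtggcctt
Rps25: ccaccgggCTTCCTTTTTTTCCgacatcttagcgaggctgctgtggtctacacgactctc
Eef1a1: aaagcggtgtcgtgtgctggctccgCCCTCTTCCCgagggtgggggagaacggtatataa

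Ribosomal protein genes have many near-identical pseudogenes, among which reads are shared by estimation. Single entries are therefore uncertain, and sums over a family are given beside them. Rpl17-ps5 had 863, 1428, 249, 676 and 1230 TPM under anti-PD-1, against 0.0454, 34.1, 3.88 and 148 TPM under isotype, and rose by 5.90 ± 1.12 on the log2 scale (adjusted p = 0.0269). Rpl17 and its 7 pseudogene entries summed to 3601 ± 1139 TPM under anti-PD-1 and 3119 ± 872 TPM under isotype, with overlap, so the sum did not follow the entry. In contrast, Rps13 with its 7 pseudogene entries summed to 773, 686, 473, 1051 and 933 TPM under anti-PD-1, against 1734, 1599, 1429 and 1717 TPM under isotype. Rpl10a with its 2 pseudogene entries summed to 592, 416, 387, 804 and 642 TPM under anti-PD-1, against 1337, 1326, 1400 and 1345 TPM under isotype. For these 2 families the sums did not overlap between the groups. The pseudogene entries Rps13-ps2 (log2 change -1.35) and Rpl10a-ps1 (-1.62) were both called lower, each at an adjusted p of 0.0179. Pseudogene entries made up 62.9% of the Rps13 sum under anti-PD-1 and 74.6% under isotype, and 62.7% and 75.9% of the Rpl10a sum. The sums thus contain the called entries and are no separate support. Rps13 and Rpl10a alone overlapped, with up to 411 and 307 TPM under anti-PD-1, against lows of 403 and 282 TPM under isotype. Rps12 itself was listed at 0 in all 9 libraries while 23 entries named after it summed to 2696 ± 939 TPM under anti-PD-1 and 3344 ± 416 TPM under isotype. One of these, Rps12l1, fell by 2.43 on the log2 scale (adjusted p = 0.0269), but the sum overlapped between the groups.

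The other pseudogene rises were Rps19-ps14 (0.923 to 6.2 TPM under anti-PD-1, listed at 0 in every isotype library), Gm11522 (3.47 to 54 TPM under anti-PD-1, listed at 0 in every isotype library) and Gm15536. The last had 808, 216, 145, 696 and 675 TPM under anti-PD-1, against 0, 0, 0 and 59.2 TPM under isotype. Rps19 and its 14 pseudogene entries summed to 2752 ± 951 TPM under anti-PD-1 and 2400 ± 788 TPM under isotype, with overlap, and the 14 alone to 21.7 ± 4.07 TPM under anti-PD-1 and 25.1 ± 27.4 TPM under isotype. The sum of the pseudogene entries thus did not follow Rps19-ps14. Among the predicted genes that fell, Gm10131 had 40.1, 72.7, 76.4 and 16.9 TPM under isotype and was at or below 3.26e-08 TPM in every anti-PD-1 library.

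Outside protein synthesis, Tnfaip3 had the clearest fall of a gene with a known part in immune signalling. It encodes A20, a ubiquitin-editing enzyme that shuts off NF-kB signalling (chromosome 10, 19000910 to 19015657). Tnfaip3 had 40.6, 11, 22.7, 37.3 and 41.5 TPM under anti-PD-1, against 166, 75.8, 110 and 204 TPM under isotype. T023 was the lowest anti-PD-1 library and T024 the lowest isotype library, and the groups did not overlap. The log2 change was -2.19 ± 0.38 (adjusted p = 0.0179), -2.12 (adjusted p = 0.036) without T026 and -1.83 (adjusted p = 0.0334) rescaled. Nfkbia, which encodes the inhibitor that holds NF-kB in the cytoplasm, had 62, 106, 40.1, 122 and 133 TPM under anti-PD-1, against 127, 210, 225 and 606 TPM under isotype. Its log2 change of -1.53 did not pass (adjusted p = 0.107), the groups overlapped, and its transcripts hold an A/T stretch.

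The start regions of both genes are shown for the kappaB consensus, the element that NF-kB binds, searched on both strands and printed in capitals. The Tnfaip3 region (chr10:19015411-19015560, minus strand, the 150 bases before the start) holds 2 matches, which begin 125 and 12 bases before the start. The Nfkbia region (chr12:55492648-55492707, minus strand, the 60 bases before the start) holds 1, which begins 29 bases before it. A match in the 300-base start region was found for 5.14% of the 27025 genes and for 3 of the 18 fallen genes with a region, or 16.7%.

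Tnfaip3: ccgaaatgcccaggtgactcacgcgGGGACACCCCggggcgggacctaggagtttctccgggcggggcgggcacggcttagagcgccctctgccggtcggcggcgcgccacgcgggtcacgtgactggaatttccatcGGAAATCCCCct
Nfkbia: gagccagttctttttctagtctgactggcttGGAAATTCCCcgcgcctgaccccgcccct

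The remaining falls spanned chaperones, the cytoskeleton, polyamine synthesis and mitochondria. Ptges3, the Hsp90 co-chaperone p23, averaged 426 ± 136 TPM under anti-PD-1 and 1696 ± 634 TPM under isotype (log2 change -1.98, adjusted p = 0.0212). Actr2, a subunit of the actin-branching Arp2/3 complex, averaged 785 ± 341 TPM under anti-PD-1 and 2343 ± 450 TPM under isotype (-1.68, adjusted p = 0.0212). The GTPase gene Rhoa, which controls actin and myosin, averaged 512 ± 200 TPM under anti-PD-1 and 1269 ± 255 TPM under isotype (-1.38, adjusted p = 0.0444). The transcripts of these 3 genes hold an A/T stretch and so were left out of the rescaled values. Odc1, the rate-limiting enzyme of polyamine synthesis, had 39.2, 38.1, 29.1, 82.6 and 53.8 TPM under anti-PD-1, against 120, 107, 172 and 197 TPM under isotype, a log2 change of -1.64 (adjusted p = 0.0479). The same pathway supplies the spermidine from which the hypusine of Eif5a is made. Bhlhe40, a transcription factor induced in activated T cells, had 59, 66.5, 47.4, 89 and 69.5 TPM under anti-PD-1, against 200, 145, 149 and 236 TPM under isotype (-1.45, adjusted p = 0.0355).

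Ppp2r5c, a regulatory subunit of protein phosphatase 2A, changed by -1.71 (adjusted p = 0.0261). Mrpl42, of the mitochondrial ribosome, changed by -1.52 (adjusted p = 0.0245), and Grcc10 by -1.53 (adjusted p = 0.0489). Rescaled, Odc1, Bhlhe40, Ppp2r5c, Mrpl42 and Grcc10 stood at -1.27, -1.07, -1.34, -1.14 and -1.15, and none of the 5 passed. Slc10a1, the bile acid transporter of hepatocytes, was low throughout, at 0, 0, 0, 0.159 and 0 TPM under anti-PD-1, against 1.43, 3.65, 5.16 and 5.05 TPM under isotype.

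No annotated protein-coding gene outside the pseudogene entries passed as a rise with the deposited values, and the rises of smallest p were mostly stretch entries. Dusp23, a phosphatase gene, had 8806, 14834, 3516, 4671 and 7116 TPM under anti-PD-1, against 2076, 2813, 2667 and 3265 TPM under isotype (log2 change 1.36, adjusted p = 0.0891). Zfp260, a zinc finger gene, had a log2 change of 1.29 (adjusted p = 0.0765), and the collagen gene Col4a3 one of 1.71 (adjusted p = 0.0719). The splicing factor gene Zrsr1, with the C stretch printed above, had 42748, 82207, 15955, 12305 and 34911 TPM under anti-PD-1, against 7183, 10104, 8906 and 17012 TPM under isotype (1.55, adjusted p = 0.0891). T021 and T023 were the 2 highest libraries for each of these 4 genes, as they were for the stretch shares. Pecam1, an adhesion molecule of endothelium, followed them with 5221, 5830, 1756, 2179 and 2511 TPM under anti-PD-1, against 814, 1370, 1261 and 1429 TPM under isotype. Its other list members Tie1 and Vwf stayed at or below 3.32 TPM in every library.

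Over all tested genes, 14.1% of the 1537 A/T stretch entries were higher at an unadjusted p under 0.05, against 2.05% of the 10506 entries without a repeat or stretch. When the values were rescaled without repeat entries alone, 65 genes were called higher, 0.483% of 13446, of which 51 were A/T stretch entries and 2 C/G stretch entries. The part of the stretches in these rises was not tested. Of the genes without a stretch, Hba-a1, an alpha globin gene of red blood cells, had 14.4, 25.5, 18.6, 17.1 and 18.6 TPM under anti-PD-1, against 0, 12.8, 2.61 and 1.07 TPM under isotype. Its log2 change of 2.62 did not pass (adjusted p = 0.0861). Thg1l, which adds a base to histidine tRNA, was called higher without T026 (log2 change 1.29, adjusted p = 0.036) and rescaled (1.44, adjusted p = 0.0268), but not as deposited (1.05, adjusted p = 0.116). T021 and T023 were again its highest libraries, at 1603 and 2232 TPM.

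Genes of T cell identity and killing did not pass in either direction. Of 24 genes of the T cell receptor and its signalling, 0 were called and 4 were lower at an unadjusted p under 0.05 (16.7%, beside 6.72% of all genes), with a median log2 change of -0.39 as deposited and -0.05 rescaled. Rescaled, 1 of 20 was lower and 1 higher. Cd3e, a receptor subunit, had a log2 change of -0.40 (adjusted p = 0.803), Cd8a one of -0.48 (adjusted p = 0.605), and Trac, the constant region of the alpha chain, one of -1.19 (adjusted p = 0.216). Of 24 cytotoxic effector genes, 0 were called, and their median was -0.08, or 0.28 rescaled. Gzmb, a granzyme that kills target cells, had 1036, 502, 677, 966 and 1189 TPM under anti-PD-1, against 1793, 568, 878 and 729 TPM under isotype. Prf1, the pore-forming perforin, had a log2 change of 0.55 (adjusted p = 0.838) and Ifng, the cytokine interferon gamma, one of -0.27 (adjusted p = 0.893), and both overlapped between the groups. The proliferation gene Mki67 had a log2 change of -0.50 (adjusted p = 0.728), and of 44 cell cycle genes 0 were called, with a median of -0.50, or -0.13 rescaled.

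Among 24 tested genes of inhibitory receptors and exhaustion, 0 were called, 4 were lower and 1 higher at an unadjusted p under 0.05, and the median was -0.41, or -0.08 rescaled. The 4 lower are 16.7%, beside 6.72% of all genes, and rescaled 2 of 16 were lower and 1 higher. Ctla4, an inhibitory receptor that binds the ligands of CD28, had 46.3, 19.4, 35, 48.9 and 67.9 TPM under anti-PD-1, against 206, 89.4, 178 and 100 TPM under isotype. The groups did not overlap, but the log2 change of -1.72 did not pass (adjusted p = 0.13; rescaled -1.35, adjusted p = 0.421). Nr4a1, a nuclear receptor induced by T cell receptor signals, had a log2 change of -1.61 (adjusted p = 0.0847). The log2 change of Pdcd1, which encodes PD-1, was -0.87 (adjusted p = 0.447), that of Havcr2 (TIM-3) was 0.25 (adjusted p = 0.955), that of Lag3 -0.44 (adjusted p = 0.849) and that of Tox, a transcription factor of exhausted cells, 0.50 (adjusted p = 0.801). Pdcd1lg2, which encodes the PD-1 ligand PD-L2, had 4.62, 2.26, 3.57, 2.26 and 5.25 TPM under anti-PD-1, against 19.6, 14.5, 12.1 and 12.6 TPM under isotype (log2 change -1.80, adjusted p = 0.306). The other ligand gene, Cd274, had a log2 change of 0.26 (adjusted p = 0.9).

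Tcf7, the transcription factor of stem-like T cells, had 28.3, 24.4, 10.8, 55.4 and 46.1 TPM under anti-PD-1, against 54.2, 109, 96.3 and 128 TPM under isotype. Only T029 reached the isotype range, and the log2 change was -1.65 (adjusted p = 0.0979; rescaled -1.29, adjusted p = 0.237). Ccr7, the receptor that guides naive T cells and dendritic cells to lymph nodes, had a log2 change of -1.89 (adjusted p = 0.13), with no overlap between the groups. The chemokine receptor gene Cxcr4, an A/T stretch entry, had 11.7, 9.95, 6.59, 11.7 and 12.7 TPM under anti-PD-1, against 31.3, 53.4, 38.6 and 58.8 TPM under isotype, and did not pass (adjusted p = 0.0732). Foxp3, which defines regulatory T cells, stayed at or below 2.11 TPM in all 9 libraries, and Madcam1, the gut-homing addressin, was listed at 0 in all of them.

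Interferon response genes had the highest list median of the function lists. Of 23 tested genes of the interferon gamma response, 0 were called and 0 had an unadjusted p under 0.05, and the median log2 change was 0.26 as deposited, 0.33 without T026 and 0.67 rescaled, against all-gene medians of -0.15, -0.03 and 0.13. Rescaled, 6 of 19 were higher at an unadjusted p under 0.05, where 5.03% of all genes were, and 0 were called. Gbp3, a guanylate-binding protein of cell-autonomous defence, had 38.9, 28.9, 17.1, 52.7 and 30.3 TPM under anti-PD-1, against 1, 12, 20.9 and 20.5 TPM under isotype (log2 change 1.63, adjusted p = 0.502). Cxcl9, a chemokine that attracts T cells, had 23, 21.8, 12.9, 4.88 and 8.41 TPM under anti-PD-1, against 3.6, 13.9, 2.4 and 7.15 TPM under isotype (1.01, adjusted p = 0.735). Cxcl10, which binds the same receptor, had a log2 change of 0.46 (adjusted p = 0.919), with overlapping groups. The 36 type I interferon genes had a median of 0.17, or 0.38 rescaled, and 0 were called.

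Of 28 tested immediate early and heat shock genes, 0 were called, but 15 were lower and 0 higher at an unadjusted p under 0.05. That is 53.6% lower, beside 6.72% of all genes and 32.5% of genes with a mean of at least 100 TPM. Rescaled, 6 of 23 were lower and 0 higher, beside 2.69% and 5.03% of all genes, and 0 were called. The list median was -0.98 as deposited, -0.76 without T026 and -0.52 rescaled. Genes with a mean of at least 100 TPM had -0.44, -0.26 and -0.10, and their rescaled share is not given. Fos, a subunit of the transcription factor AP-1, had 32.8, 33.7, 25.7, 55.4 and 71.3 TPM under anti-PD-1, against 49.1, 122, 170 and 370 TPM under isotype (log2 change -1.75, adjusted p = 0.0923). Dusp1, a phosphatase that ends MAP kinase signals, had 10.7, 7.35, 6.19, 26 and 10.3 TPM under anti-PD-1, against 51.7, 25.9, 60.4 and 312 TPM under isotype (-2.63, adjusted p = 0.0647). T028 was the highest library for both genes. Btg2, which slows proliferation, had a log2 change of -1.37 (adjusted p = 0.0645), with no overlap.

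Of 53 genes of oxidative phosphorylation, Ndufa4 fell, none rose, and 21 were lower at an unadjusted p under 0.05. That is 39.6%, beside 6.72% of all genes and 32.5% of genes with a mean of at least 100 TPM, and 12 of 50 were lower rescaled. Ndufa4, a subunit of cytochrome oxidase, averaged 190 ± 54 TPM under anti-PD-1 and 485 ± 84.4 TPM under isotype, a log2 change of -1.38 (adjusted p = 0.0489), or -0.99 (adjusted p = 0.178) rescaled. Atp5b, of ATP synthase, had a log2 change of -1.25 (adjusted p = 0.0765) and Uqcrq, of complex III, one of -1.25 (adjusted p = 0.0603). The list median was -0.58, or -0.19 rescaled, beside -0.44 and -0.10 for all genes with a mean of at least 100 TPM. Of 27 actin cytoskeleton genes, Actr2 fell, and the intermediate filament gene Vim had a log2 change of -1.09 (adjusted p = 0.0752). Medians were -0.54 for the actin list, -0.52 for glycolysis and hypoxia and -0.63 for cholesterol synthesis, and 0 genes of the lists for glycolysis and for cholesterol were called. Ldha, the lactate dehydrogenase of glycolysis, had a log2 change of -0.95 (adjusted p = 0.121) and Insig1, which restrains sterol synthesis, one of -1.68 (adjusted p = 0.116).

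**Figure D4:**
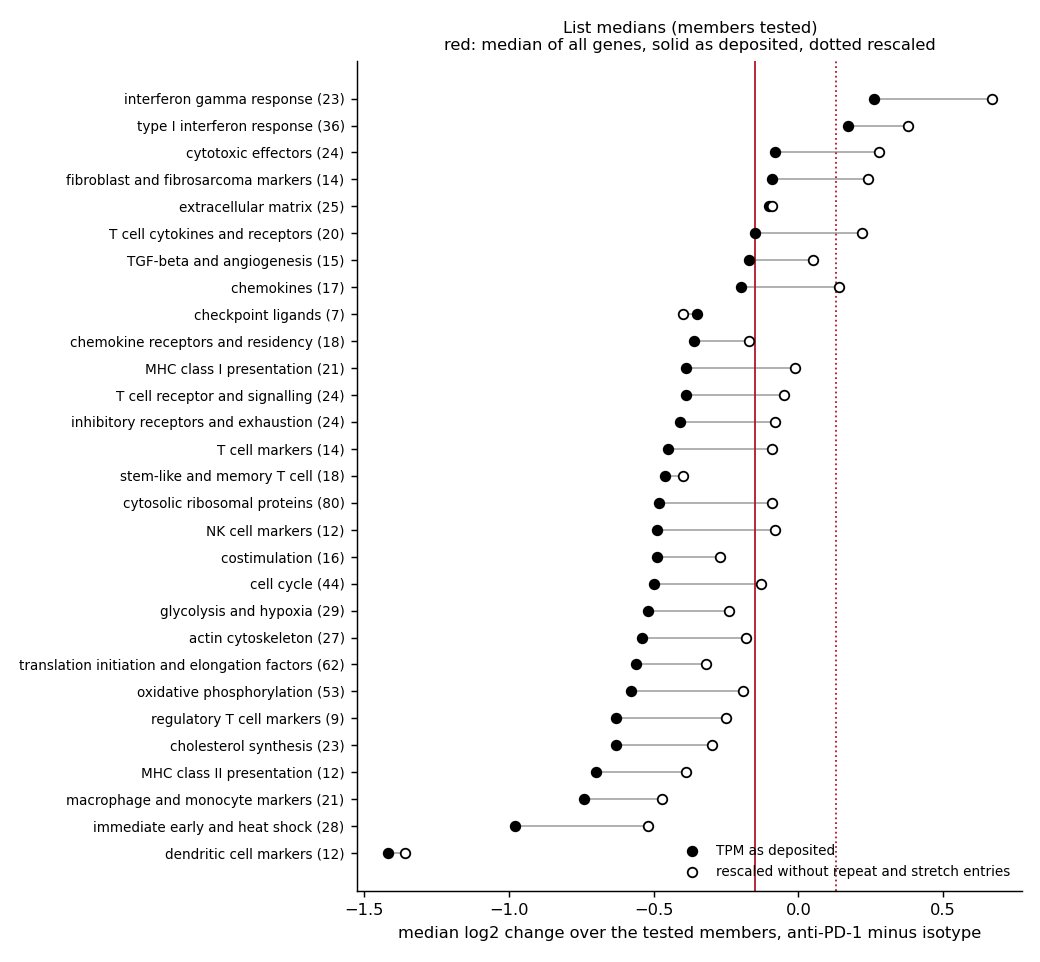
Median log2 change (anti-PD-1 minus isotype) over the tested members of the function lists and 6 of the 14 marker lists, their number in brackets, with deposited values (filled) and values rescaled without repeat and stretch entries (open), and red lines at the all-gene medians, -0.15 and 0.13. Of the lists drawn, dendritic cell markers lie lowest, at -1.42 and -1.36, and the interferon gamma response highest, at 0.26 and 0.67, while erythroid and platelet markers, not drawn, had 0.56 and 0.93 over 7 members.

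Markers of dendritic cells had the lowest median of the lists in the plot of list medians, -1.42 as deposited, -1.36 without T026 and -1.36 rescaled. Of 12 tested, 0 were called and 5 were lower at an unadjusted p under 0.05 (41.7%, beside 6.72% of all genes). Rescaled, 3 of 12 were lower, beside 2.69% of all genes. The 15 listed summed to 30.1 to 60.1 TPM under anti-PD-1 and 81.1 to 174 TPM under isotype. Cd83, a marker of mature dendritic cells also found on activated lymphocytes, had 1.45, 1.06, 0.191, 0.969 and 0.789 TPM under anti-PD-1, against 2.45, 30.6, 4.46 and 35.7 TPM under isotype (log2 change -2.72, adjusted p = 0.238). Ccl17, a chemokine of dendritic cells, was listed at 0 in all 5 anti-PD-1 libraries, against 0, 2.12, 23.8 and 6.78 TPM under isotype. Batf3, a transcription factor of cross-presenting dendritic cells, was at or below 0.74 TPM under anti-PD-1, against 0, 9.98, 7.8 and 5.87 TPM under isotype. The isotype library T022 lacked Ccl17 and Batf3 like the anti-PD-1 libraries, whereas Xcr1, the receptor of the same dendritic cells, overlapped fully. Of the 12 tested, 4 were called lower and 1 higher in the sorted CD8 T cells described below, where 19.4% and 4.12% of all genes were. Ccr7 and Cd83, which T cells also express, were among the 4. Fewer cells of a type, less RNA per cell and a change within T cells cannot be told apart in such libraries.

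Of 21 macrophage and monocyte markers, 0 were called, with a median of -0.74, or -0.47 rescaled, and a sum of 446 to 1058 TPM under anti-PD-1 and 1094 to 1703 TPM under isotype. Tyrobp, which encodes the adaptor DAP12 of myeloid cells and NK cells, had 22.8, 14.9, 9.03, 9.46 and 28.5 TPM under anti-PD-1, against 18.7, 67.3, 117 and 73.2 TPM under isotype. Of 12 MHC class II presentation genes, 0 were called, with a median of -0.70, or -0.39 rescaled. Cd74, the invariant chain of class II molecules, had 62.3, 66.6, 34, 63.9 and 56.7 TPM under anti-PD-1, against 46.8, 178, 228 and 245 TPM under isotype (log2 change -1.40, adjusted p = 0.341). As with Ccl17 and Batf3, T022 was the isotype library nearest to the anti-PD-1 ones. The part of these cells in the falls above was not tested.

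In the CZA arm, which shares no library with this comparison, 24 of the 28 falls were also lower under anti-PD-1, where 34.2% of all genes were, and 0 of the 28 were called. There 0.0075% of all genes were called lower and 0.278% higher. Rpl4 averaged 1525 TPM under anti-PD-1 and 1815 TPM under isotype there, a log2 change of -0.31 (adjusted p = 0.603). The difference between the arms was -1.18 ± 0.33 for Rpl4 (adjusted p = 0.29) and -1.83 ± 0.52 for Tnfaip3 (adjusted p = 0.29), and none of the 32 called genes passed the test of that difference. A fall in the CZA+DAV132 arm alone is therefore not shown. The arms carry separate series of library names, T021 to T030 and T982 to T991, and arm and series cannot be told apart. The difference between the arms passed for 6 genes, 0.045% of those tested, all with a lower value for the CZA+DAV132 arm. None of the 6 was called in that arm. Without T026 the difference passed for 0 genes (limma, 975 at an unadjusted p under 0.05).

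The sorted CD8 T cells of the repeat experiment, again with no shared library, gave the same direction for every fall that could be compared. Of the 28 falls, 27 were tested there, 27 were lower under anti-PD-1 and 24 were called lower. Of the genes tested in both sets, 76% were lower and 20.2% were called lower. Genes with a mean of at least 100 TPM, which held 22 of the 28 falls, had a median log2 change of -0.74 there. The median of all genes was -0.34, and the part of expression level in this match was not tested. Tnfaip3 averaged 20.9 ± 12.5 TPM under anti-PD-1 and 68.3 ± 32.9 TPM under isotype in the CD8 set (SD, n = 5 each), a log2 change of -1.78 ± 0.36 (adjusted p = 0.0068). Rpl4 changed by -1.07 (adjusted p = 0.0129), Eef1b2 by -1.19 (adjusted p = 0.00855) and Odc1 by -1.40 (adjusted p = 0.00653). Of the 4 rises, 2 were tested in the CD8 set. Rpl17-ps5 was called higher there too, at 3.62 (adjusted p = 0.00818), and Gm11522 had a log2 change of -1.04 (adjusted p = 0.35), where 4.12% of the CD8 genes were called higher and 19.4% lower. Of the genes that did not pass in the libraries labelled bulk tumour, Ccr7 changed by -2.39 (adjusted p = 0.0052), Cd83 by -2.40 (adjusted p = 0.00395), Dusp1 by -2.67 (adjusted p = 0.00395) and Ctla4 by -1.58 (adjusted p = 0.00997) in the CD8 set. In that set repeat entries took 12% to 69.9% of the TPM under anti-PD-1 and 2.35% to 8.55% under isotype, and the all-gene median was -0.34. The part of the repeat share in these falls was not tested.

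**Figure D5:**
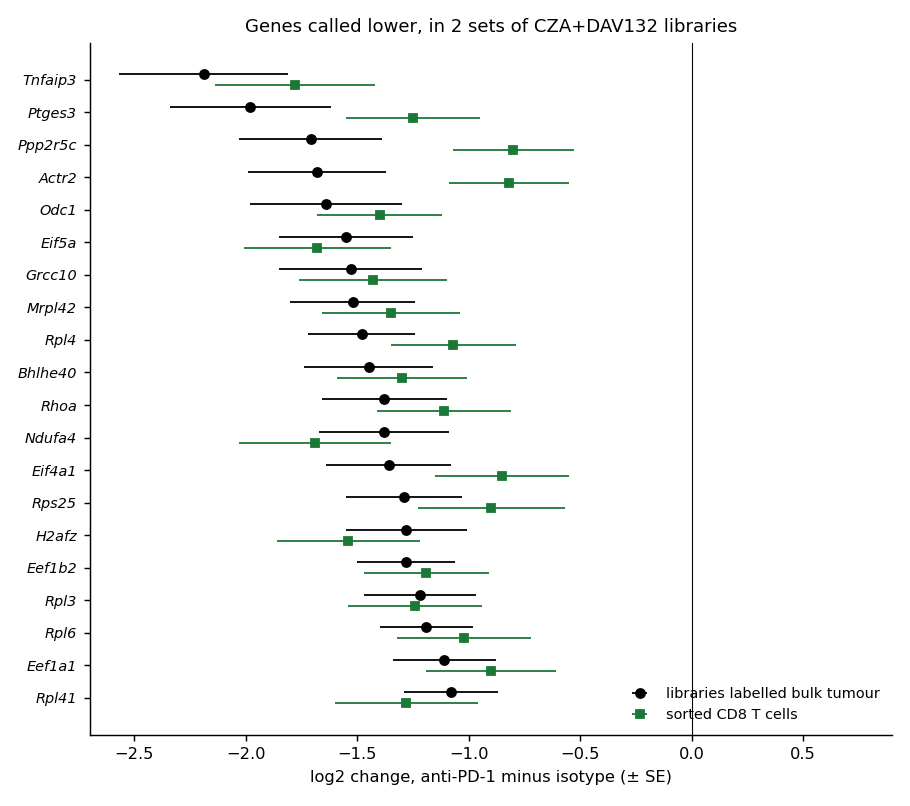
The log2 change (anti-PD-1 minus isotype, ± SE) of 20 genes called lower, in the libraries labelled bulk tumour (circles) and in sorted CD8 T cells (squares) of the CZA+DAV132 arm, without predicted and pseudogene entries and without Slc10a1, which was not tested in the CD8 set. All lie below 0 in both, with Tnfaip3 at -2.19 and -1.78.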

How the data were processed

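Total RNA of the libraries labelled bulk tumour was depleted of ribosomal RNA and made into directional libraries, per the labels' protocols. The authors deposited TPM per gene symbol, estimated with kallisto 0.45 on GRCm38 per the submitters' processing notes, and the annotation is not given in the sources used here. Of 28023 symbols, 27787 were matched to GENCODE M21 (GRCm38), the source of coordinates and sequence classes. Repeat entries (17) share at least 30% of their 21-base words with satellite entries or are at least 50% simple repeats, and stretch entries are defined in the text. Listed TPM summed to 970406 to 991092 per library, depth is unknown, and no columns were identical.

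Values were taken to log2(TPM + 1), which understates changes of low genes. The filter kept genes that reached 1 TPM in 4 or more of the 19 libraries, and these were fitted with limma 3.58.1 in R 4.3.3 (trend, empirical Bayes), with a mean for each of 4 groups and a common variance per gene. P-values were two-sided and adjusted over all 13326 genes (Benjamini-Hochberg, 0.05). The CD8 table was fitted separately in the same way, and levels across the tables carry that limit. The fit was tested on simulated data. A gene that was not called is not thereby shown to be unchanged. Exact permutation used scipy 1.17.1.

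Genes were named by a rule: the 10 largest rises and falls called whose mean reached 5 TPM, filled up with those of smallest p, the 5 largest each way without T026, the 3 of smallest p in each of 35 lists, and 17 fixed genes. Predicted genes, pseudogenes, histone genes, receptor segments, mitochondrial and small RNA genes were left out of the first parts. The other called genes, Fos, Nfkbia, Batf3, Xcr1, Col1a1, Rpl13a and the ribosomal families were added after their values were seen. The comparison, the lists and the rule were chosen with earlier results of these data known. Some of these genes are described. Lists are described by counts and medians.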

Additional observations from a re-analysis of the deposited data

Results flagged for a closer look

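Values of 96 genes and library quantities named in the text were screened in each group of 4 or 5 libraries for a library apart from the rest, 185 groups of values in all, and 12 were found, where chance alone gives about 1 in 20. T026 stood apart with 51.1% of its TPM on repeat entries, and was also the low library for Cd74 (34 TPM) and Mki67 (13.1 TPM). T023 was the low anti-PD-1 library for Lag3 (16.4 TPM) and Cd274 (17.8 TPM). T029 was the 1 anti-PD-1 library above 0 for Slc10a1 (0.159 TPM) and Gm10131 (3.26e-08 TPM). Among isotype libraries, T022 was low for Rpl3 (1010 TPM) and for Cxcl10 (2.44 TPM), T024 was high for Rps13 (434 TPM), and T028 was low for Mrpl42 (171 TPM) and high for Gm15536 (59.2 TPM).

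The anti-PD-1 change differed between the arms by the interaction test for 6 genes, with log2 differences (CZA+DAV132 minus CZA) of -3.97 for Rgs8, -3.80 for Mpv17l2, -4.14 for D030056L22Rik, -4.40 for Tstd2, -3.85 for Grhpr and -4.48 for Rab4a. All 6 were called higher under anti-PD-1 in the CZA arm, where Rgs8 averaged 12.3 TPM under anti-PD-1 and 0.213 TPM under isotype. Isotype means there were also near 0 for Tstd2 (0 TPM), Grhpr (0.361 TPM) and Rab4a (0.98 TPM), and Rgs8 and Tstd2 are stretch entries. The CZA isotype libraries had 9333 to 10542 genes at 1 TPM or more, and the CZA anti-PD-1 libraries 10638 to 12212. The part of detection in these differences was not tested. Arm and library name series cannot be told apart. In the CZA+DAV132 arm Rgs8 averaged 6.5 TPM under anti-PD-1 and 11.1 TPM under isotype. The difference passed for no gene after median-ratio scaling (limma, 1008 genes at an unadjusted p under 0.05), nor without T026 (975).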

How the results depend on the processing

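No paired analysis was possible because each library carries a number of its own. Genes called higher, 4 with the deposited values, were 2 with only the 2 groups fitted, 1 with no filter, 12 with median-ratio scaling, 65 rescaled without repeat entries and 132 with array weights. Added after seeing the data, they were 7 rescaled without repeat and stretch entries, 7 with T026 also left out, 2 without T023 and T026, and 1 without T021, T023 and T026. Genes called lower, 28 as deposited, were 4 with only the 2 groups, 13 with no filter, 52 with the stricter filter, 176 with array weights, 11 rescaled without repeat and stretch entries, 11 with T026 also left out, 1 without T023 and T026, and 0 without T021, T023 and T026 (161 at an unadjusted limma p under 0.05). Leaving out 1 library gave 0 to 20 genes higher and 0 to 113 lower by limma (348 to 528 higher and 594 to 800 lower at an unadjusted p under 0.05 without T022, T024, T026 or T027), and a repeat share difference of 0.0112 to 12.7 percentage points. The difference between the arms, called for 6 genes, was called for 1 rescaled without repeat entries, 0 without T026 (975 at an unadjusted limma p under 0.05), 0 with median-ratio scaling (1008 at an unadjusted limma p under 0.05) and 0 rescaled without repeat and stretch entries (742). The cause was not tested. Among 128 named genes tested, 11 were called, and no call changed sign under any alternative run. Of 2609 values under an alternative, 124 lost a call and 80 gained one. Only the 11 called genes could lose a call, so the 124 are a larger share of their values than of all 2609. Another 41 values, of genes not called, had the other sign. Of 734 list medians, 704 stayed within 1 SD. TPM keeps no depth, so low genes carry an unknown counting error.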
